A study of Mus musculus with 43 samples.

Results

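The fragments of cytosolic tRNA-Cys were examined in small RNA libraries of mouse epididymis tissue, epididymal fluid and sperm. Members were the rows of each count table that name a tRNA-Cys isodecoder and a fragment type. An isodecoder is a tRNA that shares its anticodon with others and differs from them elsewhere in its sequence. The 3 fragment types are the tRF_5′, which starts at the 5′ end of the mature tRNA, the tRF_3′, which reaches its 3′ end, and the tRF_other, which reaches neither end. All tRNA-Cys isodecoders listed carry the anticodon GCA (tRNA-Cys-GCA), and they bear the numbers 1 to 19, 21, 24 and 25. These 22 isodecoders and 3 types gave 66 members in each table. In all, 4890 small RNAs were listed for tissue, 3178 for fluid and 4323 for sperm. After the filter on low counts, 63 members were tested in tissue, 60 in fluid and 56 among the sperm libraries. One tRF_3′ of sperm had no count in any library.

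All mice were of the FVB strain and 8 to 12 weeks old. WT mice carried the intact Rnase9-12 cluster, which encodes members of the RNase A family made in the epididymis, and KO mice were homozygous for a CRISPR deletion of the whole cluster, in 1 mutant line. The tissue groups were the caput, corpus and cauda segments, with 3 libraries each of WT and KO mice except for KO corpus, which had 2. The fluid groups were the same segments, with 3 WT and 3 KO libraries each, and sperm was taken from the cauda, with 4 WT and 4 KO libraries. RNA of 3 mice was pooled for each library of fluid or sperm. Whether tissue libraries came from 1 mouse or several was not given in the sources used here. Transcripts of the deleted genes were not counted in these small RNA tables, so the genotype labels could not be checked against them.

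tRNA-Cys carries cysteine to the ribosome. Its fragments arise when mature or precursor tRNAs are cut, often in the anticodon loop, and angiogenin, another RNase A family member, makes such cuts under stress. 5′ fragments of tRNA-Cys and tRNA-Ala with a run of G at their start are known to hold back translation initiation, and a 5′ fragment of tRNA-Cys is known to bind nucleolin. In the epididymis, sperm pass from the caput through the corpus to the cauda, where they are stored, and they gain small RNAs, tRNA fragments among them, on the way.

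Most tRNA-Cys genes lie close together in the mouse genome. RefSeq lists 56 cytosolic tRNA-Cys genes with this anticodon on GRCm38, and 48 of them lie on chromosome 6 between positions 47978997 and 48363603, a span of 384.6 kb. Another 5 lie on chromosome 11, 2 on chromosome 9 and 1 on chromosome 17. Of the 56 genes, 55 are 72 bases long and 1 is 70. The gene names of RefSeq could not be paired with the isodecoder numbers, so no cytosolic sequence is shown. The mitochondrial tRNA-Cys, which is no member but decodes the same codons in mitochondria, is given with its anticodon marked. It is shorter than the cytosolic tRNA-Cys genes, so the anticodon position need not be the same in them. The gene mt-Tc lies on the minus strand at chrM:5192-5257 (GRCm38, 66 bases), and the anticodon GCA at bases 29 to 31 is in capitals.
mt-Tc: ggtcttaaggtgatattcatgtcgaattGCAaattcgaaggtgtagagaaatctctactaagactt

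Depth differed by sample type. Tissue libraries held 30142156 to 249732714 counts, of which 22588 to 907959 lay on tRNA-Cys fragments. Fluid libraries held 1948718 to 12320922, with 19720 to 216508 on tRNA-Cys, and sperm libraries 1134840 to 62128314, with 6572 to 792462. In each tissue group of 3, replicate 3 was among the deepest libraries and had the lowest tRF_other and the highest tRF_5′ share of tRNA-Cys counts, so same-numbered comparisons are given below beside the group values. In sperm, WT replicate 4 had the fewest tRNA-Cys counts and correlated least with the other WT libraries. One library of WT caput tissue and all caput fluid libraries carried a conflicting segment label (cauda) and were grouped by their titles.

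Many isodecoders could not be told apart by their counts. The authors kept all best matches of a read among tRNAs, so a read can count on more than 1 isodecoder. Members whose counts agreed within 1% or 5 counts in every library were taken as 1 set. In all sample types the tRF_5′ of isodecoders 1, 2 and 3 formed a single set. Isodecoder 1 had 1181, 940.3 and 936.7 CPM, counts scaled to a common library total, in WT caput fluid, and isodecoder 2 had 1180, 940.2 and 936.4. A second set of tRF_5′, led by isodecoder 4 and holding up to 9 isodecoders in fluid, came next. The tRF_3′ of isodecoders 2 and 5 went together, as did those of 3 and 7 in fluid and sperm. These 4 held 92.8% of the tissue tRF_3′ counts, 93.0% of those in fluid and 95.3% in sperm. The 22 tRF_5′ thus made 14 distinguishable sets in tissue and 12 and 15 in the other sample types, the 22 tRF_3′ made 19, 8 and 8, and the 22 tRF_other made 13, 14 and 10. Counts of members below are therefore not counts of independent RNAs.

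**Figure D1:**
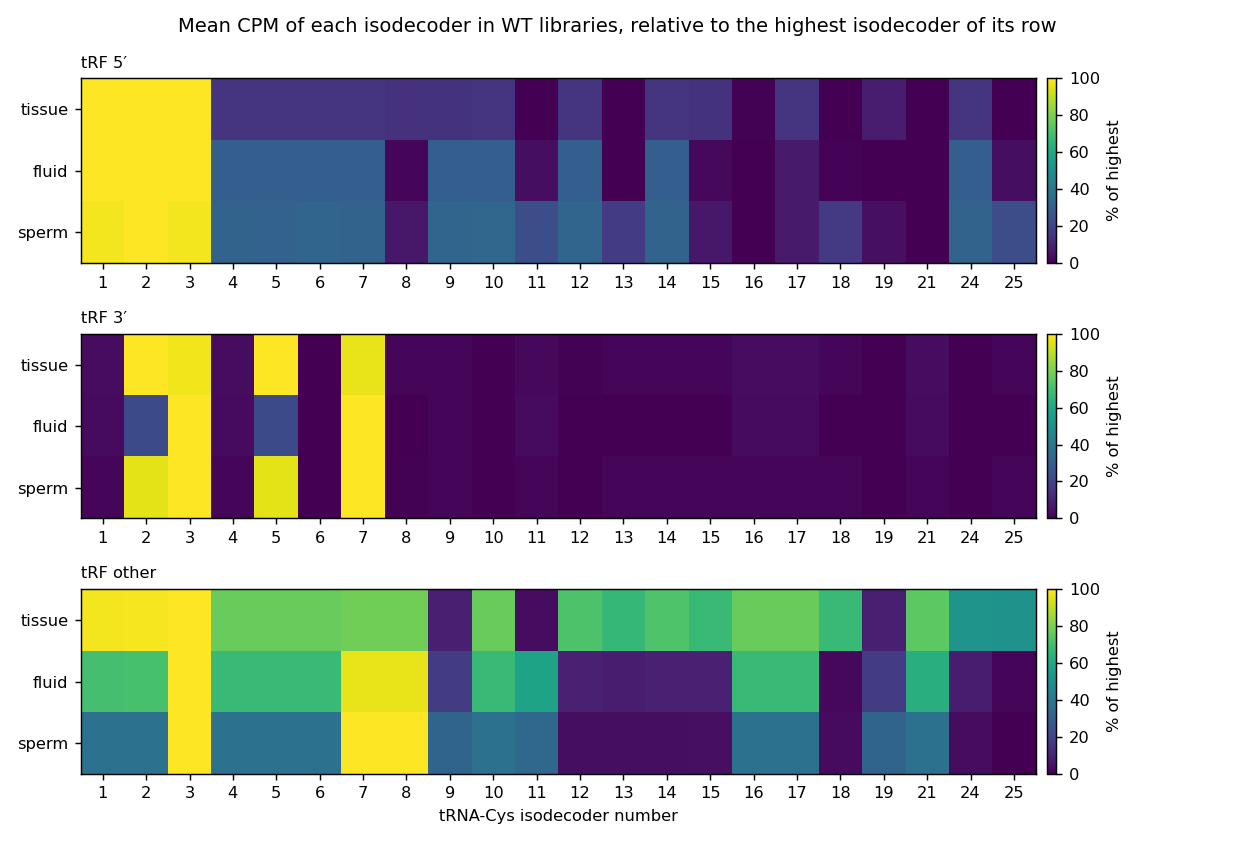
Mean CPM of each isodecoder (x axis) over the WT libraries of tissue, fluid and sperm (rows), as a percentage of the highest isodecoder in that row (color), for tRF_5′, tRF_3′ and tRF_other. The tRF_5′ of isodecoders 1 to 3 lead in every sample type, and the tRF_3′ of isodecoders 2 and 5 are near those of 3 and 7 in tissue and sperm but well below them in fluid.

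The balance among isodecoders differed between sample types. Ratios of 2 isodecoders within a library do not depend on library scaling, and they are given here as a description, because the sample types were prepared and counted separately. The tRF_3′ of isodecoder 2 ranged from 91.2% to 111% of that of isodecoder 3 in tissue libraries. Its range was 91.4% to 100% in sperm but 19.3% to 34.1% in fluid, with no overlap. The tRF_other of isodecoder 12 was 57.9% to 81.9% of that of isodecoder 3 in tissue, 1.75% to 20.6% in fluid and 0.235% to 17.4% in sperm. In contrast, the tRF_other of isodecoder 11 was 2.28% to 6.07% of that of isodecoder 3 in tissue, 37.9% to 84.3% in fluid and 30.7% to 42.9% in sperm. Isodecoders 12 and 11 thus took opposite places in tissue on one side and in fluid and sperm on the other. Tissue was sequenced by ARM-seq and fluid and sperm by OTTR-seq, so the method and the sample type cannot be told apart where tissue is compared with the others.

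The fragment types also took different places. In tissue, the tRF_other held 53.8% to 86.9% of the tRNA-Cys counts per library, and the tRF_5′ 2.33% to 18.4%. In fluid, the tRF_5′ was the largest type by summed counts in nearly all libraries, with 46.1% to 74.7%. The tRF_3′ followed with 11% to 49.95%, and the tRF_other held 1.75% to 19.1%. In sperm, the tRF_other again held 70.7% to 86.9%. These shares sum rows that can share reads. By the most counted isodecoder of each type, the WT fluid mean was 2050 CPM for the tRF_3′ and 1480 for the tRF_5′. The tRF_other stayed highest in WT tissue (128 CPM) and WT sperm (778), beside 88.5 and 246 for the tRF_3′. In KO cauda tissue, isodecoder 3 had 117 CPM as tRF_3′ and 68.8 as tRF_other. tRNA-Cys made up 5.12% to 16.0% of all tRF counts in tissue libraries, 1.0% to 2.90% in fluid and 12.6% to 19.0% in sperm. Among 51 anticodons it ranked 1 to 3 by summed counts in the tissue groups, 13 to 23 in the fluid groups and 1 to 2 in the sperm groups. Since a read shared by many isodecoders can count on each, ranks were also taken with only the most counted isodecoder of each anticodon. The rank of tRNA-Cys was then lower, at 7 to 17, 25 to 34 and 2 to 4.

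**Figure D2:**
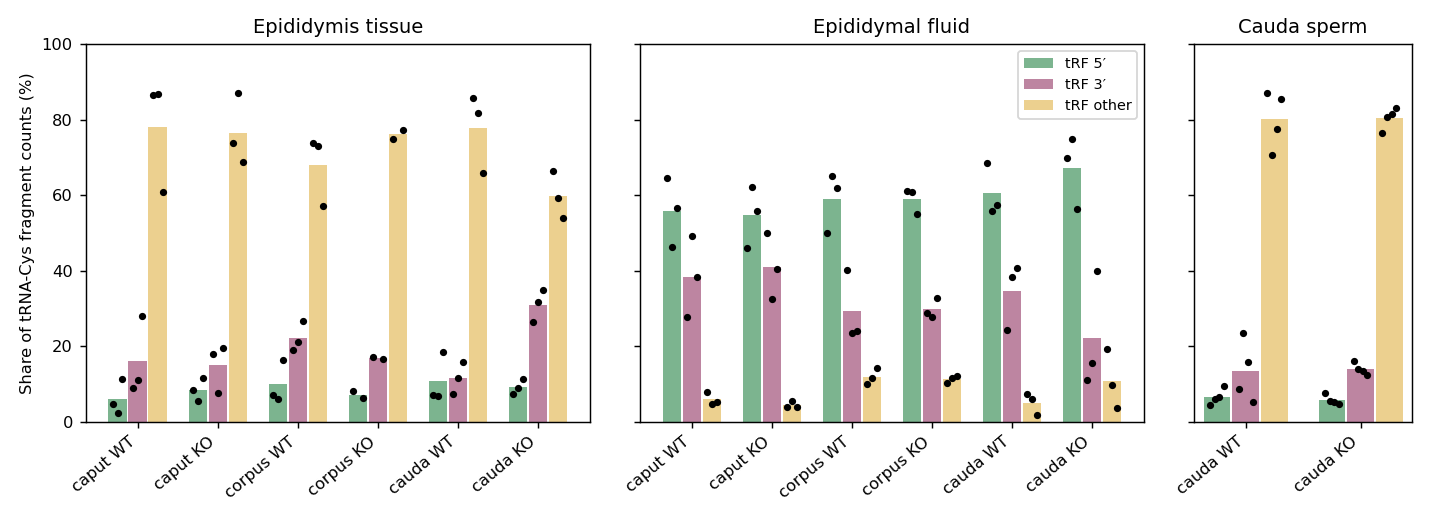
Share of tRF_5′, tRF_3′ and tRF_other among all tRNA-Cys fragment counts (y axis, %) in each group (x axis), with bars at the group mean and a point for each library. The tRF_other has the largest mean share of summed counts in tissue and sperm and the tRF_5′ in fluid. A read shared by several isodecoders can count on each, so these shares depend on read sharing. The tRF_3′ share of KO cauda tissue (26.3% to 34.8%) lies above that of WT cauda tissue (7.22% to 15.8%).

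**Figure D3:**
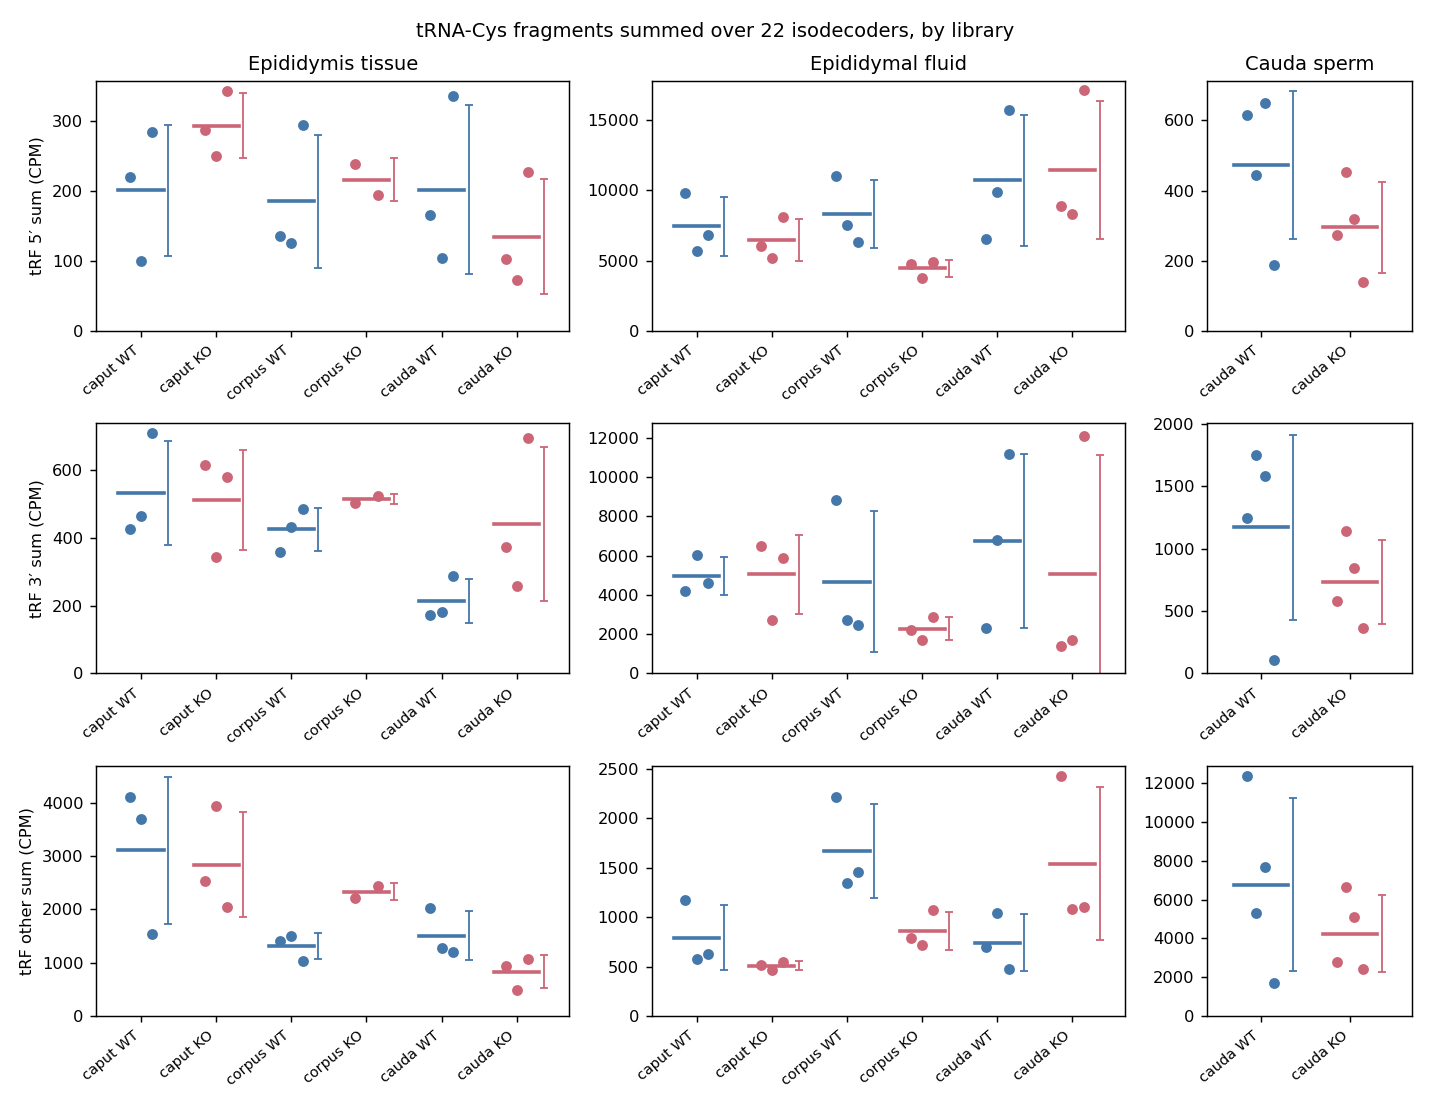
CPM of tRF_5′, tRF_3′ and tRF_other summed over the 22 isodecoders (rows) in tissue, fluid and sperm (columns), with a point for each library, a line at the group mean and an error bar of 1 SD; the bar of the KO cauda fluid tRF_3′ is cut at 0. The tRF_3′ sum of WT cauda tissue (171 to 289 CPM) lies below those of WT caput and corpus tissue, and the tRF_other sum of KO cauda fluid (1083 to 2433 CPM) lies above that of WT cauda fluid (478 to 1046 CPM).

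Along the WT epididymis, the tRF_3′ of tRNA-Cys in tissue were lower in cauda than in caput. The tRF_3′ sum, scaled within the table summed by anticodon, was 428, 464 and 710 CPM in caput, 359, 433 and 484 in corpus and 171, 182 and 289 in cauda. All cauda libraries lay below all caput and corpus libraries. The cauda sum fell by 1.32 on the log2 scale against caput (SE 0.371, edgeR adjusted p = 0.0138), where 5.58% of the sums and other RNAs of that table were called lower, and the corpus sum had a log2 fold change of −0.33 (SE 0.365, adjusted p = 0.602). The call on the cauda sum was lost without caput replicate 3 (−1.09), cauda replicate 1 (−1.18) or cauda replicate 2 (−1.21). Of the 20 tRF_3′ tested, 19 were lower in cauda at adjusted p under 0.05 and a fold change above 2, and the remaining one, isodecoder 24, was listed at 0 in all WT cauda libraries and at 0.0763 ± 0.0508 CPM (SD, n = 3) in caput. The most counted tRF_3′, such as isodecoder 3, had 90.3, 104 and 147 CPM in caput and 34.2, 38.6 and 65.1 in cauda, a log2 fold change of −1.31 (SE 0.358, adjusted p = 0.0127). The rarer isodecoder 15 had 1.40, 1.72 and 2.01 CPM in caput and 0.332, 0.420 and 0.565 in cauda, and fell by 1.92 (SE 0.423, adjusted p = 0.00273). Without isodecoder 24, the median log2 fold change of the tRF_3′ was −1.45 with a range from −1.92 to −1.09, beside −0.427 over all 197 tRF_3′ of the table.

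Many tRF_other of WT tissue were lower in corpus and cauda than in caput as well. Its sum was 4111, 3698 and 1538 CPM in caput, 1398, 1508 and 1032 in corpus, and 2035, 1273 and 1202 in cauda. Caput replicate 3 was the low library of its group, and it overlapped the cauda libraries. The log2 fold change of the sum was −1.25 in corpus (SE 0.405, adjusted p = 0.0551) and −1.05 in cauda (SE 0.403, adjusted p = 0.0696), and in the fit blocked on replicate number these became −1.20 (adjusted p = 0.0136) and −1.01 (adjusted p = 0.0238), both past the threshold. Among single members, 34 of 63 were lower in cauda than in caput (19 tRF_3′ and 15 of 22 tRF_other) and none was higher, where 7.28% of all RNAs tested were lower and 23% changed in either direction. In corpus, 10 of 63 members were lower, all of them tRF_other, where 2.81% of all RNAs were lower, and the block gave 16. Isodecoder 4, for example, had 203, 187 and 78.4 CPM as tRF_other in caput and 71.0, 76.4 and 59.5 in corpus (log2 fold change −1.18, SE 0.366, adjusted p = 0.0461). The median over the 22 tRF_other was −1.18 in both comparisons, beside −0.711 in corpus and −0.524 in cauda over all 210 tRF_other. The count of calls in corpus rested on single libraries: it was 19 without caput replicate 3 and 0 without any other of the 6. In cauda it was 7 without cauda replicate 2, 13 without caput replicate 1 and 17 without caput replicate 2 or cauda replicate 3. The tRF_5′ sum of tissue did not move with the segment beyond its spread, at 219, 99.4 and 284 CPM in caput, 136, 125 and 295 in corpus and 165, 105 and 336 in cauda (adjusted p = 0.902 and 0.995). The summed level of 2 smooth muscle miRNAs was 20.6 to 40.3 CPM in WT caput, 44.2 to 87.5 in corpus and 108 to 215 in cauda, and its part in these differences was not tested. Bulk tissue cannot tell fewer cells of a type from less RNA per cell.

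In WT fluid, members were called in both directions between segments. The leading tRF_5′ set of isodecoders 1 to 3 rose from caput to cauda: isodecoder 1 had 1181, 940 and 937 CPM in caput and 1422, 1956 and 2851 in cauda. Every cauda library was above every caput library, with a log2 fold change of 1.03 (SE 0.340, adjusted p = 0.0304). Since isodecoders 1, 2 and 3 share their reads, their 3 higher calls are 1 observation. The tRF_5′ of isodecoder 11 went the other way, with 132, 79.6 and 60.8 CPM in caput, 59.7, 64.2 and 62.0 in corpus and 8.55, 19.2 and 14.4 in cauda. It fell by 2.69 on the log2 scale in cauda (SE 0.519, adjusted p = 0.00107), as did isodecoder 25, whose counts nearly matched it, by 2.71 (SE 0.526, adjusted p = 0.00109). The tRF_other of isodecoder 25 was also called lower (adjusted p = 0.0184), but only 1 of the 3 cauda libraries had any count, so no fold change is given. In all, 3 of 60 members were higher and 3 lower, where 9.69% and 15.4% of all RNAs were, and the 6 calls became 2 or 3 without caput replicate 1, caput replicate 3 or cauda replicate 3. The tRF_other sum of fluid was highest in the WT corpus, at 2219, 1345 and 1453 CPM, against 1176, 580 and 622 in caput and 700, 1046 and 478 in cauda. The corpus libraries lay above all caput and cauda libraries (log2 fold change to caput 1.08, SE 0.388, adjusted p = 0.0658). Isodecoder 3 was the only tRF_other called in that comparison, with 153, 142 and 149 CPM in corpus and 77.2, 56.2 and 50.5 in caput (1.27, SE 0.433, adjusted p = 0.0452), where 8.21% of all RNAs were higher and 17.7% in either direction. No member was called lower, where 9.54% of all RNAs were. Leaving out any 1 of the 6 libraries ended that call (adjusted p from 0.0599 to 0.156), and the block fit called 5 members. The median over all 198 tRF_other of fluid was 1.07 in corpus, above the 0.75 of the 22 tRNA-Cys tRF_other. The marker miRNAs moved with the segments too: those of sperm and testis summed to 2.0 to 3.5 CPM in WT caput fluid and 15.1 to 31.6 in cauda, those of blood cells to 30.7 to 35.0 and 76.2 to 86.1, and those of epithelium to 103 to 182 in caput and 27.1 to 62.6 in corpus. Their part in these differences was not tested.

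In cauda tissue, most tRF_3′ had all KO libraries above all WT libraries, but none passed the test. Isodecoder 3 had 34.2, 38.6 and 65.1 CPM in WT cauda and 94.5, 82 and 174 in KO cauda, and isodecoder 2 had 34.7, 36.4 and 59.4 in WT and 89.7, 80.5 and 172 in KO. All KO libraries lay above all WT libraries for both, and the KO values lay near the WT caput values. The log2 fold change was 1.34 for isodecoder 3 (SE 0.358, adjusted p = 0.0982) and 1.39 for isodecoder 2 (SE 0.366, adjusted p = 0.0956), short of the threshold. The lowest adjusted p of any tRNA-Cys tRF_3′ was 0.0682, for isodecoder 14, with 0.531, 0.878 and 0.817 CPM in WT and 1.78, 1.47 and 3.45 in KO (1.60, SE 0.383). No member was called, where 0.0287% of all RNAs were called higher and 0.86% changed in either direction.

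All 20 tRF_3′ tested had positive fitted values in KO against WT cauda. Without isodecoder 24, which was listed at 0 in WT cauda, the median log2 fold change was 1.34 with a range from 0.924 to 1.67, whereas the median over all 197 tRF_3′ of the table was −0.443. For 18 of the 197 tRF_3′, every KO library lay above every WT library, and these 18 were all tRNA-Cys, in part through shared reads. Of all RNAs, 6.91% had such a separation. The same 18 had an unadjusted p under 0.05, where 7.74% of all RNAs did in that direction. Replicate numbers paired the cauda tissue libraries, and the fit with that block called 16 of the 20 tRF_3′ and 1 tRF_5′ (isodecoder 11) higher, where 5.79% of all RNAs were called higher. DESeq2 with its own filtering called 11 tRF_3′ higher, where 1.46% of all RNAs were.

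**Figure D4:**
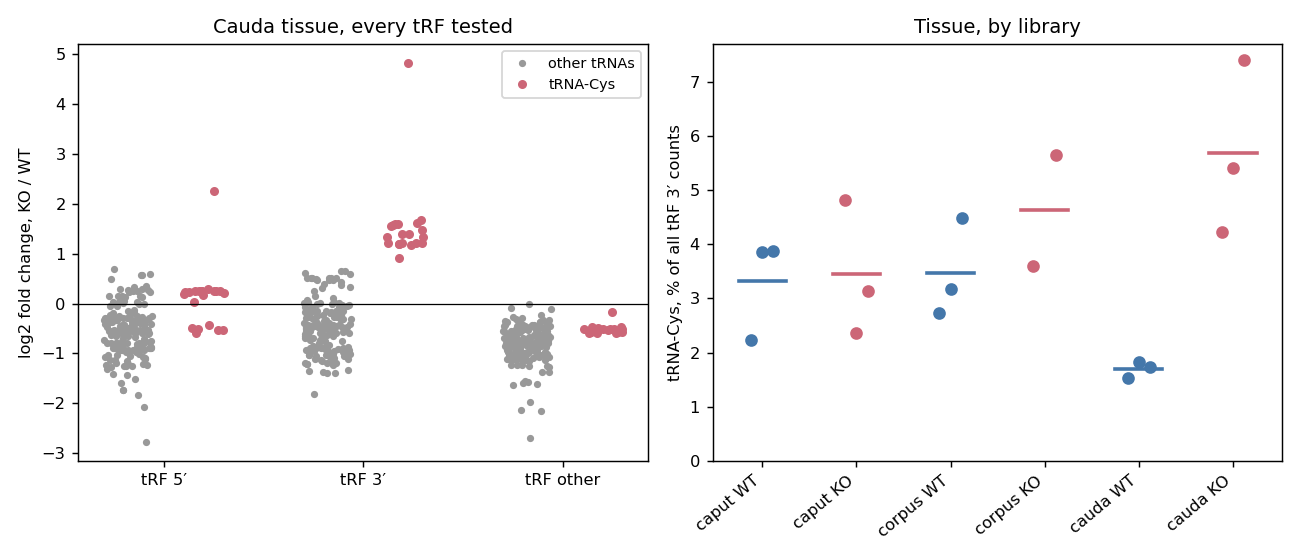
Left, fitted log2 fold change of KO over WT cauda tissue (y axis) for every tRF tested, by fragment type (x axis), with tRNA-Cys in red and other tRNAs in grey; the highest tRNA-Cys tRF_3′ point is isodecoder 24, listed at 0 in WT. Right, tRNA-Cys as a percentage of all tRF_3′ counts (y axis) in each tissue library, with a line at the group mean. In cauda the WT libraries lie at 1.53% to 1.83% and the KO libraries at 4.24% to 7.42%.

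The summed tRF_3′ of cauda tissue was 171, 182 and 289 CPM in WT and 372, 258 and 695 in KO. KO replicate 2 lay below WT replicate 3, so the groups overlapped, but each KO library exceeded the WT library of the same number, by 2.17, 1.42 and 2.41 times. The log2 fold change was 1.05 (SE 0.369, adjusted p = 0.233). With the block it was 0.991 (adjusted p = 0.0281), just under the threshold on fold change, and without KO replicate 3 it was 0.558. The share of tRNA-Cys among all tRF_3′ counts of a library, which no scaling touches, was 1.53%, 1.83% and 1.73% in WT and 4.24%, 5.41% and 7.42% in KO. The means were 1.70% ± 0.156 and 5.69% ± 1.61 (SD, n = 3 each; exact permutation p = 0.1, two-sided, the smallest the design allows, and 0.35 adjusted over 21 such comparisons). With only the most counted isodecoder of each anticodon, the difference of 3.99 percentage points became 1.96 (exact permutation p = 0.1). Within tRNA-Cys, the tRF_3′ held 7.22%, 11.7% and 15.8% of the counts in WT and 26.3%, 31.7% and 34.8% in KO (exact permutation p = 0.1, 0.9 adjusted over 21). Both shares separated the groups without overlap.

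The tRF_other and tRF_5′ sums of cauda tissue had negative log2 fold changes, and neither passed the test. The tRF_other sum was 2035, 1273 and 1202 CPM in WT and 939, 483 and 1075 in KO, with every KO library below every WT library (log2 fold change −0.85, SE 0.402, adjusted p = 0.380). All 22 members had negative values, with a median of −0.517, but so did all 210 tRF_other of the table, with a median of −0.739. The tRF_5′ sum was 165, 105 and 336 CPM in WT and 103, 73.1 and 228 in KO, and the groups overlapped (−0.59, SE 0.505, adjusted p = 0.745). Of the 21 single tRF_5′ tested, however, 15 had positive values and 6 negative ones, with a median of 0.226 beside −0.52 over all 199 tRF_5′. The same-numbered ratios of KO to WT were 0.624, 0.700 and 0.677 for the tRF_5′. The uncut tRNA, counted from reads that span nearly the whole mature tRNA-Cys, was rare, at 1.54, 1.71 and 2.51 CPM in WT and 7.32, 5.82 and 3.83 in KO. Every KO library was above every WT library (log2 fold change 1.54, SE 0.708, adjusted p = 0.364). Smooth muscle miRNAs summed to 108 to 215 CPM in WT and 107 to 140 in KO cauda, 5 epithelial miRNAs to 8.67 to 15.7 and 7.79 to 13.1, and 2 sperm and testis miRNAs to 0.0382 to 0.278 and 0.220 to 0.462. Their part in these differences was not tested.

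In caput tissue the tRF_3′ sum overlapped between genotypes, at 428, 464 and 710 CPM in WT and 615, 343 and 581 in KO (log2 fold change −0.06, SE 0.365, adjusted p = 1.0). The difference between the KO effects of cauda and caput was 1.10 for the tRF_3′ sum (SE 0.517, unadjusted p = 0.0486, adjusted p = 1.0), so a difference between the segments was not shown. No caput member was called, where 0.0% of all RNAs were, and no member had an unadjusted p under 0.05. For the tRF_5′, 14 of 21 members had every KO library above every WT library. Such a separation held for 8.54% of all tRF_5′ and 3.24% of all RNAs. The median log2 fold change of the tRF_5′ was 0.667, beside 0.112 over all tRF_5′. Among these 14 were isodecoders 10, 12 and 14 of the tissue set of 7 that shares reads. Isodecoders 11, 15, 17 and 19, also among them, were in no shared set. Of these, isodecoders 15 and 17, at 11.2 and 11.5 CPM in KO caput, had means close to that of isodecoder 10, at 11.4. In corpus tissue, all 63 members tested had positive values, with medians of 0.503 for the tRF_5′, 0.551 for the tRF_3′ and 0.906 for the tRF_other, but scaling by library size alone gave the tRF_5′ and tRF_3′ sums values of −0.197 and −0.00287. The tRF_other sum was 1398, 1508 and 1032 CPM in WT and 2218 and 2443 in KO (0.83, SE 0.441, adjusted p = 0.555). For 21 of the 22 tRF_other both KO libraries lay above the 3 WT libraries. Such a separation held for 24.8% of all tRF_other and 11.8% of all RNAs. Over all tRFs of corpus tissue, the medians were 0.0302 for the tRF_5′, −0.19 for the tRF_3′ and 0.144 for the tRF_other. No corpus member was called and 19 had an unadjusted p under 0.05, where 0.0% of all RNAs were called and 0.774% had such a p in that direction. The marker miRNAs of other cell types also separated the genotypes in corpus: those of epithelium summed to 16.3 to 25.9 CPM in WT and at most 10.7 in KO, those of smooth muscle to 44.2 to 87.5 and 24.3 to 29.5, and those of blood cells to 0.108 to 0.163 and 0.0575 to 0.0664. Their part in the corpus values was not tested.

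The share of tRNA-Cys among all tRF_5′ counts of a library, which no scaling touches, was also compared in tissue. tRNA-Cys made up 5.56%, 3.70% and 5.56% of all tRF_5′ counts in WT caput and 8.45%, 6.97% and 5.85% in KO caput. In corpus it was 3.91%, 3.26% and 5.35% in WT and 6.99% and 7.72% in KO. In cauda it was 3.92%, 2.62% and 3.63% in WT and 4.74%, 4.34% and 6.18% in KO. In each of the 3 segments the KO libraries lay above the WT libraries, by 2.15, 3.18 and 1.70 percentage points on average (exact permutation p = 0.1 in each, the smallest the designs allow; 0.35 adjusted over 21). With only the most counted isodecoder of each anticodon these became 0.831, 1.12 and 0.489 percentage points (exact permutation p = 0.1, 0.2 and 0.3). The shares of the tRF_5′ within tRNA-Cys itself overlapped in all 3 segments.

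In corpus fluid, 5 of 60 members were called lower in KO, a share near that of all RNAs (6.23%), and none of the 3 sums passed the test. Of all 561 tRFs tested there, 106 were called lower. The tRF_5′ sum was 10970, 7552 and 6345 CPM in WT and 4722, 3776 and 4865 in KO, and the tRF_other sum was 2219, 1345 and 1453 in WT and 786, 716 and 1075 in KO. No library of KO reached a library of WT in either sum. The log2 fold changes were −0.90 (SE 0.368, adjusted p = 0.0936) and −0.96 (SE 0.387, adjusted p = 0.0879). The tRF_3′ sum, at 8824, 2735 and 2474 CPM in WT and 2221, 1718 and 2889 in KO, overlapped (−1.04, SE 0.674, adjusted p = 0.289). Of the 60 members, 59 had negative values, and 19.7% of all RNAs were called in either direction. The called members were the tRF_other of isodecoders 12, 13, 14 and 15 and the tRF_5′ of isodecoder 13, all among the rarer ones. Isodecoder 12 had 16.6, 8.66 and 9.06 CPM as tRF_other in WT and 1.60, 2.97 and 7.04 in KO, a fall by 1.58 (SE 0.494, adjusted p = 0.0299). Isodecoder 13 had 15.1, 6.59 and 8.46 CPM in WT and 0.802, 2.16 and 5.39 in KO, a fall by 1.87 (SE 0.545, adjusted p = 0.0209). Its tRF_5′ had mean values of 2.48 CPM in WT and 0.544 in KO (adjusted p = 0.0476). In 39 of 60 members the highest KO library was under the lowest WT library. Such a separation held for 37.8% of all tRFs and 15.7% of all RNAs. These KO libraries were the shallowest of the fluid table, at 1948718 to 3373869 counts. The share of tRNA-Cys among all tRF_5′ counts was 2.13% ± 0.184 in WT and 1.13% ± 0.213 in KO (SD, n = 3 each; exact permutation p = 0.1, the smallest possible, 0.35 adjusted over 21), with no overlap. With only the most counted isodecoder of each anticodon, the difference went from −0.999 to −0.362 percentage points (exact permutation p = 0.1). The median over all tRF_other of fluid was −1.02, beside −0.833 for tRNA-Cys. Without WT replicate 1, 2 or 3 or KO replicate 1 or 2 the count of calls fell below 5, down to 0. Calls in this comparison depended on the scaling: 0 members were called with scaling by library size alone and 36 when tRFs, tRNAs and rRNA fragments were left out of the scaling. Sperm and testis miRNAs summed to 3.58 to 9.06 CPM in WT and 12.8 to 15.4 in KO corpus fluid, epithelial miRNAs to 27.1 to 62.6 and 87.5 to 134, and their part in these differences was not tested.

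In cauda fluid, the tRF_other sum separated the genotypes without passing the test. It was 700, 1046 and 478 CPM in WT and 2433, 1083 and 1107 in KO, and all KO libraries lay above all WT libraries, though KO replicates 2 and 3 only narrowly so (log2 fold change 1.06, SE 0.388, adjusted p = 0.330). Of the 22 tRF_other, 21 had positive values, with a median of 0.795 beside 0.394 over all 198, but in single members the libraries mostly overlapped. The tRNA-Cys share of all tRF_other counts was 1.81%, 2.58% and 2.05% in WT and 5.34%, 2.70% and 3.22% in KO. The difference of 1.61 percentage points (exact permutation p = 0.1) became 0.513 with only the most counted isodecoder of each anticodon (p = 0.3, exact permutation). The tRF_3′ sum spread widely, at 2308, 6821 and 11160 CPM in WT and 1395, 1726 and 12080 in KO, and the tRF_5′ sum was 6521, 9891 and 15710 in WT and 8900, 8315 and 17070 in KO. Both overlapped (−0.42, SE 0.668, adjusted p = 0.834, and 0.09, SE 0.365, adjusted p = 0.948). No member of cauda fluid was called, where 0.0% of all RNAs were, and 9 had an unadjusted p under 0.05 with higher values, where 6.48% of all RNAs did.

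In caput fluid, the tRF_other sum was 1176, 580 and 622 CPM in WT and 516, 461 and 549 in KO, and no KO library reached the WT range (log2 fold change −0.64, SE 0.385, adjusted p = 0.651). The epithelial miRNAs also separated the genotypes there, at 103 to 182 CPM in WT and 241 to 298 in KO, and their part in the difference was not tested. For 8 of the 22 tRF_other of tRNA-Cys the libraries were separated with KO lower. Such a separation held for 32.8% of all tRF_other, near that share, and for 12.7% of all RNAs. The tRF_5′ (−0.21, SE 0.365) and tRF_3′ (0.03, SE 0.667) sums overlapped. No caput fluid member was called, where 0.0% of all RNAs were, and 2 were lower at an unadjusted p under 0.05, where 5.14% of all RNAs were. The KO effect on the tRF_other sum differed between cauda and caput fluid by 1.70 on the log2 scale (SE 0.546, unadjusted p = 0.00543, adjusted p = 0.268).

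In cauda sperm, KO and WT did not separate. The tRF_other sum was 12360, 5283, 7701 and 1719 CPM in WT and 2772, 6652, 5106 and 2438 in KO, and WT replicates 1 and 4 were the highest and the lowest of the 8 libraries. The log2 fold changes of the tRF_5′, tRF_3′ and tRF_other sums were −0.68 (SE 0.475), −0.68 (SE 0.643) and −0.67 (SE 0.520), with adjusted p of 0.568, 0.690 and 0.614. The tRF_5′ sum ran from 188 to 648 CPM in WT and from 138 to 452 in KO, and the tRF_3′ sum from 105 to 1751 and from 361 to 1138. Of 56 members 0 were called by edgeR, where 0.0% of all RNAs were, and 9 were lower at an unadjusted p under 0.05, where 9.48% of all RNAs were. Of all 533 tRFs tested, 154 were lower at such a p. The median log2 fold change was −0.356 over the tRNA-Cys members and −0.676 over all tRFs. DESeq2 called 8 lower, where 3.32% of all RNAs were, and leaving out WT replicate 4 gave 10 calls with edgeR. Depth went with genotype in part: WT replicates 2 to 4 held 1134840 to 3025269 counts, and KO replicates 1 to 3 held 42764979 to 62128314. All 9 members lower at that unadjusted p were rare in KO, with means of 0.741 to 3.36 CPM, beside 3.76 to 31.2 in WT. For the tRF_other among them, the WT SD exceeded the WT mean. The tRF_other of isodecoder 12, for example, ran from 0.723 to 92.5 CPM in WT and from 1.72 to 2.33 in KO. The part of depth in these calls was not tested. tRNA-Cys made up 14.4% to 17.9% of all tRF counts in WT and 12.6% to 19.0% in KO sperm, and the exact permutation p of the fragment type shares ranged from 0.543 to 0.971.

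The make-up of the tRF_5′ is given here as ratios of isodecoders within a library, and none of the differences passed after adjustment. The tRF_5′ of isodecoder 4, which stands for the second set, was 21.7% ± 0.362 of that of isodecoder 1 in WT caput tissue, 18.1% ± 3.11 in WT corpus and 8.98% ± 0.519 in WT cauda (SD, n = 3 each). In KO cauda tissue it was 15.1% ± 0.471, and the KO libraries, at 14.6% to 15.6%, lay apart from the WT libraries at 8.48% to 9.52%. The same held in cauda fluid, with 24% ± 4.44 in WT (19.3% to 28.1%) and 32.8% ± 0.668 in KO (32.0% to 33.3%). In caput fluid the ratio was higher, at 45.3% ± 6.83 in WT and 43.7% ± 7.40 in KO, and in corpus fluid it was 25.6% ± 0.705 and 27% ± 4.43. In sperm it ran from 24.1% to 41.4%, and the genotypes overlapped. Across 49 ratios compared between KO and WT, 5 were higher without overlap, 5 lower and 39 overlapped, and the separated 3-against-3 comparisons had an exact permutation p of 0.1, the smallest possible, which was 0.7 after adjustment over the 49. The 28 ratios compared between WT segments had adjusted p of 0.28 or more.

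**Figure D5:**
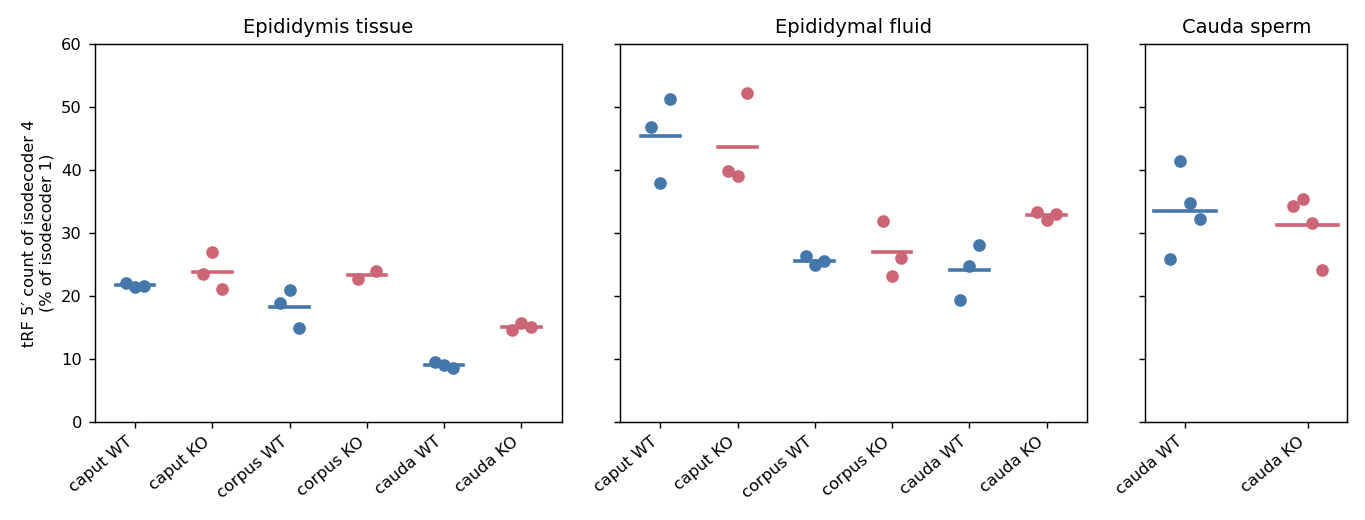
tRF_5′ count of isodecoder 4 as a percentage of that of isodecoder 1 (y axis) in each library of tissue, fluid and sperm, by group (x axis), with a line at the group mean. WT cauda tissue lies at 8.48% to 9.52% and KO cauda tissue at 14.6% to 15.6%.

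The tRF_5′ of isodecoder 11 set sperm apart from tissue. It was 20.0% to 34.9% of that of isodecoder 1 in sperm libraries, 0.507% to 11.2% in fluid and 0.0% to 1.11% in tissue. In fluid the WT ratio was 8.72% ± 2.37 in caput, 4.79% ± 1.0 in corpus and 0.697% ± 0.251 in cauda, so caput and cauda did not overlap. In KO cauda fluid it was 3.39% ± 2.54, with 1 library at 0.573% inside the WT range of 0.507% to 0.981%.

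Rows of tRNA-Cys other than the fragments were small. Reads spanning nearly the whole tRNA gave 1.09 to 13.5 CPM in tissue, 0 to 3.73 in fluid and 0 to 0.0341 in sperm. Antisense reads were at 0 in most tissue and fluid libraries and reached 5.70 CPM in sperm. The mitochondrial tRNA-Cys, whose sequence is given above, was counted at 1.44 to 7.92 CPM in tissue, 0 to 2.66 in fluid and 0 to 17.3 in sperm. Its highest sperm values, 17.3 and 13.8 CPM, were those of WT replicates 1 and 3. It is listed as a single tRNA gene, and all such rows had even counts in every library (359 in tissue, 245 in fluid and 233 in sperm). Of the 66 fragment members, 0 did so in tissue or fluid and 2 in sperm. Whether reads of the gene rows were counted 2 times was not tested, so these levels may not compare directly with those of the fragments.

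The anticodons whose summed levels went most closely with tRNA-Cys across libraries differed by fragment type. In tissue (17 libraries, 49 anticodons compared) they were tRNA-His-GTG, tRNA-Phe-GAA and tRNA-Arg-TCT for the tRF_5′, with Pearson r of 0.876, 0.832 and 0.821. For the tissue tRF_3′ they were tRNA-Ala-TGC, tRNA-Ala-CGC and tRNA-Leu-AAG, with r of only 0.637, 0.611 and 0.572. For the tissue tRF_other they were tRNA-Arg-TCG, tRNA-Trp-CCA and tRNA-Lys-TTT (0.903, 0.899 and 0.898). In fluid (18 libraries) the closest were tRNA-Gln-TTG for the tRF_5′ (0.828), tRNA-Tyr-GTA for the tRF_3′ (0.878) and tRNA-Arg-CCT for the tRF_other (0.910). In sperm (8 libraries) they were tRNA-Ala-AGC (0.971), tRNA-Arg-TCG (0.977) and tRNA-Val-CAC (0.991). These correlations describe libraries that share depth and scaling. Among the tRNA-Cys types themselves, r was 0.218 to 0.496 in tissue, −0.227 to 0.646 in fluid and 0.826 to 0.911 in sperm.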

How the data were processed

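Small RNAs were sequenced from 43 libraries in 3 deposited count tables. The authors trimmed reads with cutadapt and aligned them with bowtie2 to mm10 with mature tRNAs and rRNAs through a modified tRAX. They kept all best matches of a read, with exceptions. Matches outside tRNAs were dropped for reads that fit tRNAs best, and rRNAs and repeats were handled likewise. Raw counts were deposited. Aligner versions were not given in the sources used here. Low counts were filtered with filterByExpr (minimum count 10, minimum total 15), libraries were scaled by TMM, and all groups of a table were fitted together with edgeR 4.0.16 (R 4.3.3) by the quasi-likelihood test, with Benjamini-Hochberg adjustment over all RNAs of the table. Calls required more than a 2-fold change (1 on the log2 scale) in either direction together with an adjusted p under 0.05. Sums over isodecoders were tested in a table summed by anticodon and fragment type, whose scaling differs from that of single members. Shares and ratios were compared by exact two-sided permutation tests. Totals behind the values ran from 1134840 to 249732714 counts. p-values measure the spread between libraries, which the study describes as biological replicates. The scripts were tested on simulated data.

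DESeq2 1.42.0, other scalings, no filter, fits of 2 groups alone, a replicate block, leaving out each library and, for shares, only the most counted isodecoder of each anticodon were alternatives. Correlations of same-numbered libraries, as deviations from group means, were 0.272 to 0.596 in KO and WT cauda tissue, 0.312 to 0.555 in WT corpus and caput tissue and 0.306 to 0.633 in WT cauda and caput tissue, so numbers paired these libraries. Elsewhere at least 1 pair was under 0.1. Members, lists and tests were chosen with earlier results of these data known. Members named in the text were the 3 most counted of each type, the called members with the smallest p of a comparison, and those whose lowest adjusted p or calls are counted. Shares by fragment type of all tRFs and isodecoder ratios were added after seeing the data.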

Additional observations from a re-analysis of the deposited data

Results flagged for a closer look

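For the summed tRF_other of tRNA-Cys, KO libraries lay on opposite sides of WT libraries in different segments, although no single KO difference passed the test. In fluid, every KO library was above every WT library in cauda and below every WT library in caput, and the cauda effect exceeded the caput effect by 1.70 on the log2 scale (edgeR adjusted p = 0.268). In fluid, the cauda and corpus effects were opposite in the same way, and they differed by 2.02, which was not tested. In tissue, every KO library was below every WT library in cauda and above in corpus, where KO had 2 libraries, and the cauda effect minus the corpus effect was −1.68, which was not tested either.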

How the results depend on the processing

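The tRF_3′ sums of cauda tissue kept their direction under all 7 alternative fits. The KO cauda sum stayed between 0.893 and 1.27 on the log2 scale (adjusted p from 0.0281 to 0.707) and the WT cauda against caput sum between −1.75 and −1.32 (adjusted p from 0.000466 to 0.0365). Of 228 alternative values of the sums, 188 kept their direction and their side of the threshold, 22 changed sign and 18 crossed the threshold. Those that changed sign had reported values between −0.117 and 0.274, and the cause was not tested. Scaling by library size alone moved the median over all RNAs of KO cauda tissue from 0.116 to −0.419, and leaving tRFs, tRNAs and rRNA fragments (rsRNAs) out of the scaling moved that of KO corpus fluid from 0.0976 to −0.781. Of the single members named, 74 of 90 alternative values kept their call and 16 crossed the threshold. The shallowest libraries were WT replicate 3 of sperm, with 1134840 counts, and replicate 3 of KO corpus fluid, with 1948718. The part of depth in what could be detected was not tested. The sperm table holds 2 groups, so no separate fit of 2 groups was made for it.

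Replicate numbers paired 3 of the tissue comparisons. The replicate block gave 17 calls in KO cauda tissue in place of 0, 16 in WT corpus against caput tissue in place of 10, and, where numbers did not pair the libraries, 3 in KO corpus fluid, 5 in WT corpus against caput fluid and 3 in WT cauda against caput fluid. Under the block the tRF_other sums of WT tissue crossed the threshold in corpus (−1.20) and cauda (−1.01), as did that of WT corpus fluid (1.10). The tRF_3′ sum of KO caput fluid (−0.0979) and the tRF_5′ sum of WT cauda against caput tissue (−0.0488) changed sign, and the block changed no call on another sum. It gave 35 calls in place of 34 in WT cauda against caput tissue and left the other counts at 0.

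Fitting 2 groups alone gave 0 calls in KO corpus fluid, 0 in WT corpus against caput tissue, 10 in WT cauda against caput tissue and 6 in WT corpus against caput fluid. The tRF_5′ sums of KO cauda fluid (−0.178) and WT cauda tissue (−0.108) changed sign, and the tRF_other sum of WT corpus fluid (1.06) passed. DESeq2 with its own filtering gave 11 calls in KO cauda tissue, 2 in KO cauda fluid, 8 in sperm, 19 in WT corpus against caput tissue and 5 in WT corpus against caput fluid. With it the tRF_other sums of KO corpus fluid (−1.0), WT corpus tissue (−1.43), WT cauda tissue (−1.33) and WT corpus fluid (1.05) passed, and those of the tRF_5′ in KO cauda fluid (−0.189) and WT cauda tissue (−0.211) and of the tRF_other in WT cauda fluid (0.216) changed sign. With DESeq2 size factors in edgeR there were 18 calls in WT corpus against caput tissue and 3 in fluid, the tRF_other sums of WT corpus (−1.43) and cauda tissue (−1.33) passed, and the tRF_5′ of KO cauda fluid (−0.191) and WT cauda tissue (−0.211), the tRF_other of WT cauda fluid (0.22) and the difference of KO effects on the tRF_5′ between cauda and caput fluid (−0.0247) changed sign.

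With tRFs, tRNAs and rsRNAs out of the TMM scaling, 36 members were called in KO corpus fluid and 18 in WT corpus against caput fluid. The tRF_5′ (−1.56) and tRF_other (−1.61) of KO corpus fluid, and the tRF_other of WT corpus tissue (−1.50), WT cauda tissue (−1.59) and WT corpus fluid (1.43) passed. The tRF_3′ of KO caput fluid (−0.157) and WT corpus fluid (0.217), the tRF_5′ of KO cauda fluid (−0.126) and WT cauda tissue (−0.345) and the tRF_other of WT cauda fluid (0.29) changed sign. Library size alone gave 0 calls in KO corpus fluid, 2 in WT corpus against caput tissue, 0 in WT corpus against caput fluid and 3 in WT cauda against caput fluid. The tRF_other of WT corpus (−1.58) and cauda tissue (−1.60) passed, and the tRF_5′ (−0.197) and tRF_3′ (−0.00287) of KO corpus tissue, the tRF_5′ of WT cauda tissue (−0.287) and the tRF_other of WT cauda fluid (0.0506) changed sign. Without a filter there were 0 calls in WT corpus and 13 in WT cauda against caput tissue, the tRF_other of WT cauda tissue passed (−1.15), and the tRF_3′ of KO caput fluid (−0.0647) and the tRF_5′ of WT corpus (0.0167) and cauda tissue (−0.00701) changed sign. Taking only the most counted isodecoder moved the KO minus WT difference in cauda tissue to −8.68 percentage points for the tRF_5′ share and 29.3 for the tRF_3′ share, that of tRNA-Cys among all tRF_other of corpus tissue from 8.30 to 2.59, and that of the tRNA-Cys share of all tRFs to 1.45 in corpus tissue and −0.288 in corpus fluid.

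Leaving out each library gave 0 to 1 calls in KO cauda tissue, 0 to 5 in KO corpus fluid, 0 to 4 in KO cauda fluid and 0 to 10 in sperm. Between WT segments it gave 0 to 19 calls (corpus) and 7 to 29 (cauda) in tissue, and 0 to 3 (corpus) and 2 to 7 (cauda) in fluid. In tissue, the tRF_5′ sum then ran from −1.20 to 0.0203 in KO cauda, from −0.627 to 0.219 in WT corpus and from −0.578 to 0.324 in WT cauda, and the KO caput sums from −0.195 to 0.268 (tRF_3′) and −0.409 to 0.115 (tRF_other). The WT tRF_other sum ran from −1.58 to −1.0 in corpus and −1.43 to −0.803 in cauda, both past the threshold only without caput replicate 3, and the WT cauda tRF_3′ sum from −1.60 to −1.09. In fluid, the KO sums ran from −0.142 to 0.228 (tRF_5′, caput), −0.64 to 0.307 (tRF_5′, cauda), −0.184 to 0.518 (tRF_3′, caput) and −2.44 to 0.0568 (tRF_3′, cauda), and the differences of KO effects between cauda and caput from −0.732 to 0.446 (tRF_5′) and −2.73 to 0.000505 (tRF_3′). The WT fluid sums ran from −0.0285 to 0.374 (tRF_5′), −0.901 to 0.237 (tRF_3′) and 0.895 to 1.44 (tRF_other) in corpus, and from 0.60 to 1.26 (tRF_5′) and 0.0515 to 0.65 (tRF_other) in cauda. The last of these was −0.0967 with all libraries. The tRF_5′ sums of KO caput fluid (−0.2075) and of WT cauda against caput fluid (0.5263) with all libraries also lay outside their ranges. Filter and scaling were computed anew in each of these fits, so a range holds both the loss of a library and a change of scaling. The cause of the change in sign was not tested.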
